A study of Mus musculus with 46 samples.

Results

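Transcript levels of control EPP2 cells treated with torin 1 for 2 h were compared with those of control EPP2 cells treated with the solvent DMSO for 2 h. EPP2 is a murine pancreatic cancer line, and the study used a clone of it, grown from a single cell and carrying doxycycline-inducible Cas9, as its main screening model. Torin 1 was used at 300 nM. The labels give the genotype of the control cells as WT and name 300 ng/mL doxycycline for 4 days as the trigger of the knockout; they do not name the guide RNA that the control cells carried or whether the control cells received doxycycline. The members are the 8 RNA libraries with replicate numbers 1 to 4 of either treatment, of 46 libraries in the series, and the 9857 gene symbols with a single entry in the table of either treatment (10420 entries with DMSO, 9936 with torin 1). Of these symbols, 9626 averaged 10 counts or more per library and were tested, and 231 averaged fewer. Another 540 symbols were listed only with DMSO and 56 only with torin 1, and these were not analysed here.

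mTOR is a kinase that acts in 2 protein complexes, mTORC1 and mTORC2. mTORC1 responds to amino acids and growth factors and promotes protein, lipid and ribosome synthesis while it restrains autophagy, and mTORC2 activates AKT, which keeps FoxO transcription factors out of the nucleus. Torin 1 binds the catalytic site of mTOR and inhibits both complexes. Several transcription factors are known to respond to these kinases, among them FoxO proteins, TFEB and TFE3, SREBP, ATF4 and HIF1.

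The restriction to replicate numbers 1 to 4 rests on earlier inspection of the same libraries. The RNA libraries labelled torin 1, replicates 5 and 6, lie close to DMSO for most of the genes described here, and the labels were left unchanged. Over the 772 genes called higher in replicates 1 to 4, the median log2(CPM + 1) difference between torin 1 and DMSO of the same number was between 0.33 and 0.40 in replicates 1 to 4, but 0.07 in replicate 5 and 0.11 in replicate 6. Over the 989 genes called lower, it was between -0.49 and -0.40 in replicates 1 to 4, but -0.09 in replicate 5 and -0.08 in replicate 6. The footprint libraries with the same labels did not stand apart in this way: over the same genes their medians were 0.40 and 0.37 for the genes called higher, and -0.21 and -0.25 for those called lower. Replicates 1 to 4 were used to call these genes, so their medians are a description. Because measured profiles of this contrast decided which replicates entered, the p-values take no account of that choice, and values over all 6 replicate numbers are given for every pathway list whose count they change and for many of the named genes. CPM here is the count of a gene per 1000000 counts in the 9857 shared symbols of a library.

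**Figure D1:**
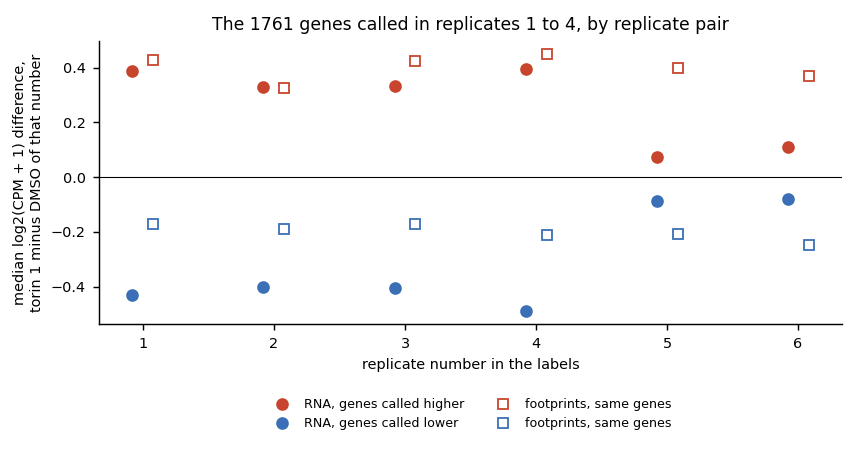
Median log2(CPM + 1) difference between torin 1 and DMSO for each replicate number (x axis), over the genes called higher (red) and lower (blue) in RNA of replicates 1 to 4. Filled circles are RNA and open squares are footprints; the RNA medians of replicates 5 and 6 lie between -0.09 and 0.11, while their footprint medians lie near those of replicates 1 to 4.

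Total counts were 150222050 to 293648854 in the 4 DMSO libraries and 142349148 to 274621336 in the 4 torin 1 libraries. The share of counts in the 100 most abundant genes was 23.2 to 24.2% with DMSO and 24.3 to 26.3% with torin 1, and that in the mitochondrially encoded genes was 0.977 to 1.35% with DMSO and 1.0 to 1.5% with torin 1. Of 12 epithelial markers, 6 were listed, and their summed level was 399 to 473 CPM with DMSO and 504 to 580 CPM with torin 1. Of 12 mesenchymal and fibroblast markers, 10 were listed, with 2827 to 3087 CPM and 3686 to 3982 CPM. Of these, Krt18 rose by 0.61 and Vim, which encodes the filament protein vimentin, by 0.44 on the log2 scale (edgeR adjusted p = 0.0010 and 0.00428). None of 9 immune, 8 acinar, 5 endocrine and 4 endothelial markers was listed in both tables. The tables hold only genes with at least 100 footprints in some library, so an unlisted gene is not thereby at 0. The part of these differences in the results below was not tested.

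With torin 1, 772 genes were called higher and 989 lower, which is 8.02% and 10.3% of the 9626 genes tested (edgeR quasi-likelihood test, adjusted p under 0.05). Most changes were small. The median log2 change was 0.42 among the genes called higher and -0.42 among those called lower, and 49 genes (0.509%) rose and 16 (0.166%) fell by at least 2-fold. The median over all genes tested was 0.0054. With the replicate number as a block, 2029 genes were called higher and 2188 lower (21.1% and 22.7%), all 1761 genes called without it among them. With all 6 replicate numbers, 916 of 9630 genes were called (9.51%), 448 higher (4.65%) and 468 lower (4.86%). Of the 1761 genes, 1758 kept their direction and 795 kept their call. Scaling by library totals instead of TMM gave 602 higher and 1292 lower, so that 31.8% of the calls were increases, against 43.8% with TMM.

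**Figure D2:**
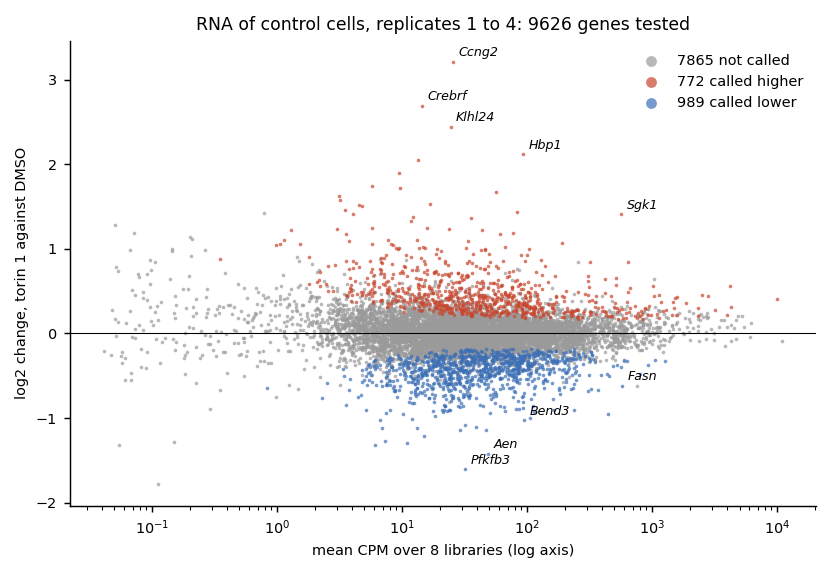
Log2 change in RNA (y axis) against the mean CPM over the 8 libraries (x axis, log scale) for the 9626 genes tested. Red points are the 772 genes called higher and blue points the 989 called lower, and the largest changes lie above the line.

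Replicates 1 and 2 and replicates 3 and 4 were also fitted apart, and the labels give no batch. Within replicates 1 and 2, 702 genes were called higher and 809 lower, and within replicates 3 and 4, 557 and 745. All 1761 genes kept their direction in both pairs, which is a description, since the same libraries were used to call them. No gene was called by the interaction of treatment with this split in edgeR, a test added after the data had been seen, with 188 of 9626 at an unadjusted p under 0.05. The values of the 2 groups of 4 did not overlap in CPM for 766 genes that were higher (7.96%) and 1591 that were lower (16.5%). CPM was computed without TMM factors, and the median log2(CPM + 1) difference over all genes tested was -0.03 to -0.02 in replicates 1 to 4. With upper quartile scaling 878 genes were called higher and 874 lower. The part of this offset in the excess of decreases was not tested.

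Among the called genes, the largest increases were those of Ccng2, Crebrf, Klhl24 and Hbp1. Ccng2 (chr5:93267573-93276231, GRCm38), which encodes the unconventional cyclin G2 that accompanies cell cycle exit, stood at 6.42, 5.11, 5.39 and 3.44 CPM in DMSO replicates 1 to 4. It stood at 51.1, 43.3, 45.0 and 43.9 CPM in torin 1 replicates 1 to 4, and at 7.77 and 7.73 CPM in the libraries labelled torin 1, replicates 5 and 6. All 4 torin 1 libraries thus lay far above all DMSO libraries, and the log2 change was 3.21 ± 0.16 (SE, n = 4 and 4), or 9.26-fold (edgeR adjusted p = 3.3e-05). Here n counts labelled libraries, which may come from fewer independent cultures. Crebrf (chr17:26715594-26776637), a negative regulator of the transcription factor CREB3, rose from 5.39, 4.39, 3.54 and 2.52 CPM to 31.0, 27.2, 23.5 and 18.1 CPM, a log2 change of 2.69 ± 0.23 (adjusted p = 0.0002). Klhl24 (chr16:20097553-20129226), an adaptor of a ubiquitin ligase, went from 10.5, 9.06, 7.06 and 4.53 CPM to 50.1, 39.7, 36 and 38.6 CPM, a log2 change of 2.44 ± 0.22 (adjusted p = 0.00023). Hbp1 (chr12:31926452-31950530), a transcriptional repressor of cell cycle genes, went from 43.6, 41.8, 34.9 and 21.5 CPM to 170, 157, 144 and 129 CPM, a log2 change of 2.12 ± 0.19 (adjusted p = 0.00023). For these 4 genes DMSO replicate 4 was the lowest of the DMSO libraries, and the groups did not overlap. With all 6 replicate numbers their log2 changes were 2.82, 2.32, 2.09 and 1.73, and all 4 were still called.

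The other 11 of the 15 largest increases ranged from 1.46 to 2.05 on the log2 scale. They were Pnrc1 (2.05), a nuclear receptor coactivator, Pim1 (1.89), a growth-promoting kinase, Fam110c (1.74), Tcim (1.72), Rin2 (1.67), a RAB5 exchange factor, Dhrs3 (1.63), a retinal reductase, Rasgef1b (1.58), Dyrk1b (1.53), a kinase linked to quiescence, AI593442 (1.51), Rhebl1 (1.5), a relative of the mTORC1 activator RHEB, and Cebpd (1.46), a C/EBP transcription factor. Their adjusted p-values from edgeR were between 3.9e-05 and 0.022. Dhrs3 missed the threshold without torin 1 replicate 4 (log2 1.26, adjusted p = 0.0504). In the libraries labelled torin 1, replicates 5 and 6, Fam110c stood at 6.63 and 6.11 CPM, against 2.28 to 2.86 CPM in DMSO and 7.55 to 10.7 CPM in torin 1 replicates 1 to 4. Rin2 stood at 48.3 and 48.9 CPM there, against 24.8 to 31.4 and 75.1 to 95.8 CPM. These 2 genes thus lay between the groups, while Pim1, at 2.98 and 3.26 CPM, lay below all 4 DMSO values of 3.4 to 5.37 CPM.

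Among the called genes, the largest decreases were those of Pfkfb3, Aen, Kbtbd8 and Tigar. Pfkfb3 (chr2:11471430-11554071), whose product makes the glycolytic activator fructose-2,6-bisphosphate, stood at 39.9, 40.7, 53.6 and 59.2 CPM with DMSO and 9.0, 17.4, 18.5 and 17.1 CPM with torin 1. All torin 1 values lay below all DMSO values, and the log2 change was -1.61 ± 0.24 (adjusted p = 0.0019). Tigar (chr6:127085116-127109552), whose product removes the same metabolite, also fell, from 14.8, 14.4, 16.4 and 17.2 CPM to 5.30, 6.52, 6.89 and 6.35 CPM, a log2 change of -1.29 ± 0.11 (adjusted p = 0.00023). Aen (chr7:78895927-78911209), a nuclease gene induced by p53, fell from 68.4, 69.8, 68.2 and 78.5 CPM to 22.1, 24.9, 27 and 29.8 CPM, a log2 change of -1.42 ± 0.11 (adjusted p = 0.00011). Kbtbd8 (chr6:95117880-95129793), an adaptor of the CUL3 ubiquitin ligase, fell by 1.32 on the log2 scale (adjusted p = 0.0025). With all 6 replicate numbers Aen (log2 -0.83) and Kbtbd8 (-0.82) were still called, but Pfkfb3 (-0.97, adjusted p = 0.065) and Tigar (-0.70, adjusted p = 0.11) were not.

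The remaining large decreases ranged from -1.27 to -1.02. Hk2, the hexokinase of growing cells, fell by 1.1, Slc25a25, a mitochondrial ATP-Mg and phosphate carrier, by 1.14, and Ndufaf4, an assembly factor of respiratory complex I, by 1.22. Trmt61a, the catalytic subunit of a tRNA methyltransferase, fell by 1.14, Mars2, the mitochondrial methionyl-tRNA synthetase, by 1.12, and Ddx31, a nucleolar helicase, by 1.02. The others were Trib3 (-1.27), Sh2b2 (-1.12), Ccdc137 (-1.09), Zswim1 (-1.03) and Bend3 (-1.03). Bend3, a repressor of transcription, stood at 127, 130, 125 and 129 CPM with DMSO and 58.3, 62.8, 60.4 and 63.3 CPM with torin 1 (log2 -1.03 ± 0.06, adjusted p = 3.9e-05). In the libraries labelled torin 1, replicates 5 and 6, it stood at 93.1 and 92.9 CPM, between both groups.

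**Figure D3:**
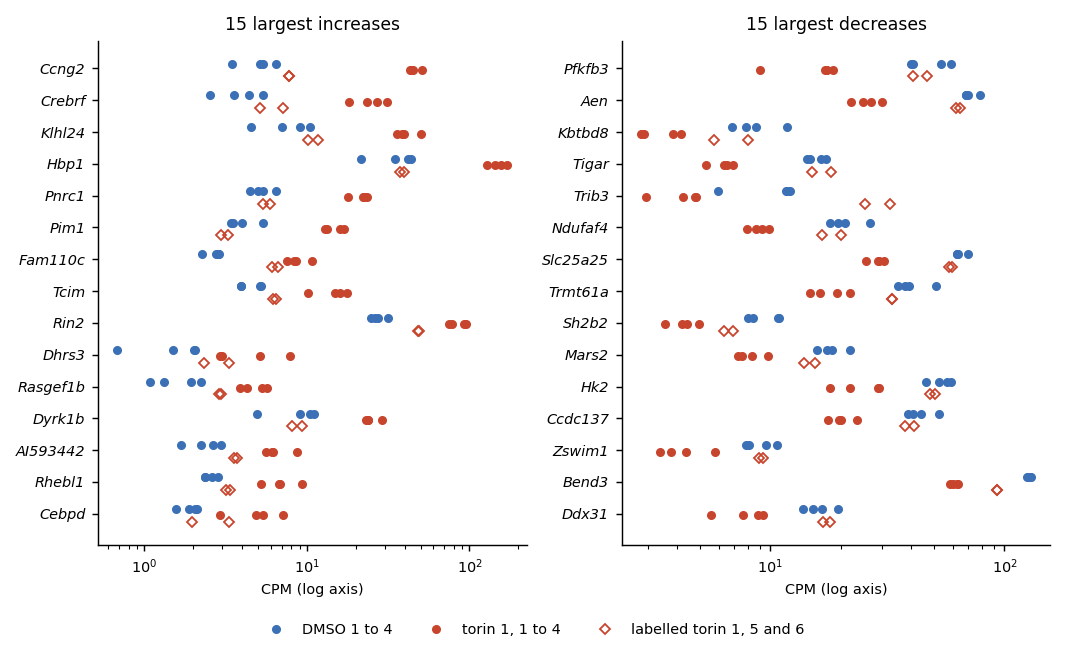
CPM (x axis, log scale) of the 15 largest increases and the 15 largest decreases in RNA, with 1 point per library. Filled blue and red circles are DMSO and torin 1, replicates 1 to 4, which do not overlap for any of these genes by the rule that chose them; open diamonds are the libraries labelled torin 1, replicates 5 and 6, which for 13 of the 30 genes both lie beyond all 6 DMSO values on the side of torin 1.

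FoxO factors activate genes of growth arrest, insulin sensitivity and autophagy when AKT is inactive. Of 30 genes listed as FoxO-type targets, 25 were tested, and 13 rose and none fell (8.02% and 10.3% over all genes tested). Their median log2 change was 0.53. The replicate block gave 16 increases and 1 decrease (21.1% and 22.7% over all genes), that of Sod2, which encodes a mitochondrial superoxide dismutase. With all 6 replicate numbers 11 of the list were called higher (4.65% over all genes). Beside Ccng2, the increases were led by Sgk1, Irs2 and Atg14. Sgk1, a kinase related to AKT, stood at 354, 341, 324 and 247 CPM with DMSO and 918, 857, 855 and 657 CPM with torin 1, a log2 change of 1.41 ± 0.12 (adjusted p = 0.0002). The libraries labelled torin 1, replicates 5 and 6, stood at 250 and 273 CPM, within the range of DMSO. Irs2, an adaptor of the insulin receptor, went from 7.43, 7.23, 7.45 and 5.09 CPM to 17.5, 19.4, 17.6 and 12.3 CPM, a log2 change of 1.33 ± 0.16 (adjusted p = 0.00082; with all 6 replicate numbers 1.02, adjusted p = 0.072). Bcl2l11 (1.18), which encodes the cell death protein BIM, Btg1 (1.03), an antiproliferative factor, Txnip (1.01), an inhibitor of glucose uptake, Foxo3 itself (0.94), and Cdkn1b (0.70), which encodes the CDK inhibitor p27, rose as well. Foxo1 (0.11), Foxo4 (0.12) and Igf1r (-0.02) were not called.

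The forkhead motif GTAAACA was searched on both strands of the 250 bases before each annotated start (RefSeq, GRCm38.p6), for which 7736 of the tested genes had a window. It was present for 2.71% of these genes, for 4.87% of the genes called higher with a window and for 2.59% of those called lower. Of 23 FoxO-type targets with a window, Txnip, Btg1 and Bcl2l11 held it. Their stretches are shown, with the motif in capitals, because all 3 genes rose; they were chosen after their values had been seen.
Txnip, chr3:96557776-96557902, plus strand: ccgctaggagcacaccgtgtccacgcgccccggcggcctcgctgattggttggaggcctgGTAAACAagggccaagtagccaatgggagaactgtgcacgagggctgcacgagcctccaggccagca
Btg1, chr10:96616751-96616863, plus strand, motif on the other strand: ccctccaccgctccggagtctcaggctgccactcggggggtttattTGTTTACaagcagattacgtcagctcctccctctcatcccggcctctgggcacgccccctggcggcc
Bcl2l11, chr2:128125788-128125877, plus strand: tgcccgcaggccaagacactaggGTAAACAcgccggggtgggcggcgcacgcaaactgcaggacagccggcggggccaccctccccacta
The motif began 121, 204 and 227 bases before the start. With torin 1, Btg1 went from 46.6, 41.4, 42.9 and 47.6 CPM to 93.2, 90.6, 89.0 and 82.6 CPM, and Bcl2l11 from 40.6, 37.5, 42.2 and 30.9 CPM to 88.3, 87.5, 93.1 and 66.1 CPM. Txnip went from 7.43, 4.74, 6.19 and 5.75 CPM to 11.1, 8.67, 11.7 and 15.9 CPM. Of these, Txnip stood at 20.5 and 17.4 CPM in the libraries labelled torin 1, replicates 5 and 6, above replicates 1 to 4. Ccng2 had a window without the motif. A match is a description of the letters and does not show binding.

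Transcripts of mTOR itself and of its partner Raptor were not called. Mtor went from 40.8, 42.9, 42.0 and 43.4 CPM to 46.5, 47.4, 43.0 and 44.0 CPM (log2 0.13 ± 0.06, adjusted p = 0.15), and Rptor had a log2 change of -0.03 ± 0.06 (adjusted p = 0.83). Of 39 genes of the mTOR complexes and their regulators, 32 were tested, and 5 rose and 3 fell (8.02% and 10.3% over all genes tested), with a median of 0.07. The replicate block gave 9 and 5 (21.1% and 22.7% over all genes) and all 6 replicate numbers 6 and none, so the share that fell was at or below that of all genes in each of these fits. Rictor, the defining subunit of mTORC2, rose from 23.6, 23.5, 24.0 and 21.1 CPM to 39.6, 38.0, 36.2 and 29.4 CPM (log2 0.67 ± 0.09, adjusted p = 0.0012). Fnip1 rose by 1.23 and its partner Flcn by 0.35, and these 2 act on the RAG GTPases that recruit mTORC1 to the lysosome. Tsc1, a subunit of the complex that inhibits mTORC1, rose by 0.52. Ddit4, which encodes the stress-induced mTORC1 inhibitor REDD1, fell by 0.94. Eif4ebp1, which encodes the translation repressor 4E-BP1, was not called (0.17 ± 0.09, adjusted p = 0.24). Of 34 genes of insulin and growth factor receptor signalling, 28 were tested, and 5 rose and 2 fell, the latter below the share of all genes (8.02% and 10.3%). The replicate block gave 11 and 3 (21.1% and 22.7% over all genes), where the 3 are again below it. All 6 replicate numbers gave 4 and 2 (4.65% and 4.86%). Without single libraries 2 to 4 rose, fewest without DMSO replicate 2. Irs2 was among the increases, and Sos1, an activator of RAS, fell by 0.63.

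Of 40 autophagy genes tested, 14 rose and 3 fell (8.02% and 10.3% over all genes tested), with a median of 0.19. The replicate block gave 20 and 6 (21.1% and 22.7% over all genes), and all 6 replicate numbers 9 and 1 (4.65% and 4.86%). Atg14, a subunit of the lipid kinase complex that starts autophagosomes, stood at 10.7, 9.50, 9.83 and 8.18 CPM with DMSO and 23.5, 22.6, 21.2 and 21.2 CPM with torin 1 (log2 1.25 ± 0.08, adjusted p = 6e-05). Rb1cc1, which encodes the ULK1 partner FIP200, rose by 0.86, and Sqstm1, which encodes the cargo receptor p62, by 0.85. The increases also took in Nbr1 (0.54), Gabarapl1 (0.53), Atg13 (0.46), Map1lc3b (0.45) and Pik3c3 (0.45). Atg16l1, which directs the lipidation of LC3, went the other way, from 65.3, 65.3, 63.3 and 66.4 CPM to 33.3, 36.6, 38.4 and 40.1 CPM (log2 -0.78 ± 0.08, adjusted p = 0.00033), and Atg5 (-0.42) and Atg4c (-0.39) fell too. With all 6 replicate numbers Atg16l1 was not called (-0.43, adjusted p = 0.14), and its values labelled torin 1, replicates 5 and 6, were 70.8 and 73.1 CPM. Of 42 genes of the lysosome and its proton pump, 5 rose and 1 fell, the former near the 8.02% of all genes tested that rose. Their median was 0.14, and 37 of the 42 had a change above 0, against 4927 of the 9626 genes tested. With the replicate block 24 rose and 1 fell (21.1% and 22.7% over all genes), and with all 6 replicate numbers 6 rose and none fell (4.65% and 4.86%). Without single libraries the count of increases was 2 to 4, lowest without DMSO replicate 3. Gla, which encodes alpha-galactosidase A, rose by 0.48 and Atp6v1b2 by 0.46, while Atp6v0a2 fell by 0.45; both of the latter are subunits of the proton pump.

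Of 27 genes of cholesterol synthesis and uptake tested, 11 fell and none rose (10.3% and 8.02% over all genes tested), with a median of -0.25. With the replicate block 17 fell (22.7% over all genes), and with all 6 replicate numbers 10 (4.86%). The decreases were small. Hsd17b7, an enzyme of sterol synthesis, went from 35.3, 34.3, 35.3 and 36.1 CPM to 22.3, 23.3, 24.1 and 21.7 CPM (log2 -0.59 ± 0.06, adjusted p = 0.0005). Sqle, which encodes squalene epoxidase, fell by 0.47. Srebf2, which encodes the factor that activates this pathway, had a log2 change of 0.00 and was not called. Both decreases were also seen in the libraries labelled torin 1, replicates 5 and 6. Hsd17b7 lay there between both groups, and Sqle stood at 73.5 and 80.0 CPM, below torin 1 replicates 1 to 4. In fatty acid synthesis 4 of 20 genes fell and 2 rose, the latter near the share of all genes, with a median of -0.08. The replicate block gave 6 and 5 (22.7% and 21.1% over all genes), and all 6 replicate numbers 5 and 1. Fasn, the fatty acid synthase, went from 563, 674, 736 and 837 CPM to 364, 481, 466 and 481 CPM (log2 -0.62 ± 0.14, adjusted p = 0.015), and Scd2 and Elovl6, which desaturate and elongate fatty acids, fell by 0.48 and 0.38. Lpin1, whose product is both a lipid phosphatase and a nuclear inhibitor of SREBP, rose from 53.5, 49.5, 51.3 and 36.4 CPM to 107, 113, 106 and 96.3 CPM (log2 1.19 ± 0.11, adjusted p = 0.00023).

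The sterol regulatory element TCACNCCAC, searched in the same way, was present for 1.2% of genes with a window, 0.974% of those called higher, 0.985% of those called lower, and for 1 of 19 genes of the cholesterol list. This was Hmgcs1, the first committed enzyme of the pathway, which fell from 251, 232, 251 and 227 CPM to 147, 179, 202 and 152 CPM (log2 -0.46 ± 0.10, adjusted p = 0.012). The E-box CACGTG, a site bound by TFEB, MYC and other factors, was present for 10.7% of genes with a window, 14.6% of those called higher and 11.3% of those called lower. Crebrf held it 125 bases before the start on which its window is based, which lies inside the gene span given above. The E-box was present for 3 of 11 genes with a window among the 15 largest increases (Crebrf, Pim1, Dyrk1b). Among the 15 largest decreases it was present for 3 of 14 (Pfkfb3, Aen, Bend3). The stretches of Hmgcs1 and Crebrf are shown as 1 example of each direction, with the motif in capitals, and were chosen after their values had been seen.
Hmgcs1, chr13:119690154-119690282, plus strand: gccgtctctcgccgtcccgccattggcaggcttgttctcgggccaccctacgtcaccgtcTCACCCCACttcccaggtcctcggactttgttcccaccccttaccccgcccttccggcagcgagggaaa
Crebrf, chr17:26715465-26715590, plus strand: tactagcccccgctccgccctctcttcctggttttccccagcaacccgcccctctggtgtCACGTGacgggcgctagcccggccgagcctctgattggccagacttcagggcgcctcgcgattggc
The E-box was present for 31.2% of the 32 lysosome genes with a window, 26.3% of the 19 cholesterol genes, 17.4% of the 23 FoxO-type targets, 12.5% of the 32 autophagy genes, 10% of the 30 ATF4 targets and 4.92% of the 61 nucleolar genes. No test of these shares was made.

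In glycolysis and lactate export, 4 of 21 genes fell and none rose (10.3% and 8.02% over all genes tested), with a median of 0.0034, so the decreases of Pfkfb3 and Hk2 were not shared by most of the list. With the replicate block 5 fell and 4 rose, near the 22.7% and 21.1% over all genes, without single libraries 2 or 3 fell, 2 without DMSO replicate 3, and with all 6 replicate numbers 1 fell. Of 17 HIF1-type targets, 5 fell and 3 rose (10.3% and 8.02% over all genes tested). The replicate block gave 7 and 3 (22.7% and 21.1%), where the increases are below the share of all genes. All 6 replicate numbers gave 5 and 1 (4.86% and 4.65%), and 3 fell without DMSO replicate 1 or 2 or torin 1 replicate 3. Jmjd6, a hydroxylase, fell by 0.78 and Tfrc, the transferrin receptor, by 0.54, while Ndrg1 rose by 0.80 and Kdm3a, a histone demethylase, by 0.49. Nuclear-encoded respiratory chain genes (42 tested) and mitochondrially encoded genes (12 tested) held no call, with 5 higher and 2 lower in the former and 2 higher in the latter with the replicate block.

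ATF4 drives amino acid synthesis and transport, and mTORC1 is known to raise its translation. Of 35 ATF4 targets tested, 5 fell and none rose, with a median of -0.14, and the share that fell is near the 10.3% over all genes tested. With the replicate block, 16 fell and 4 rose (22.7% and 21.1% over all genes). Atf4 itself went from 235, 224, 231 and 202 CPM to 132, 148, 144 and 131 CPM (log2 -0.65 ± 0.07, adjusted p = 0.00041). Trib3, a pseudokinase induced by ATF4, went from 11.7, 11.6, 12.1 and 5.97 CPM to 4.24, 4.78, 4.81 and 2.94 CPM (log2 -1.27 ± 0.23, adjusted p = 0.0052). These genes were high in the libraries labelled torin 1, replicates 5 and 6. Atf4 stood there at 390 and 327 CPM, and Trib3 at 32.5 and 25.4 CPM, above all DMSO libraries of replicates 1 to 6, which reached 271 and 14.9 CPM. No gene of this list was called with all 6 replicate numbers, where Trib3 had a log2 change of 0.11 (adjusted p = 0.93). The synthesis enzymes Asns (-0.03), Phgdh (-0.05) and Psat1 (-0.11) were not called, but Psat1 was with the replicate block (adjusted p = 0.0411). Of the cytosolic aminoacyl-tRNA synthetases, 3 of 20 rose and none fell (8.02% and 10.3% over all genes tested; 4 and 5 with the replicate block, near the shares of all genes, and 1 to 3 increases without single libraries, fewest without DMSO replicate 1; 1 and none with all 6 replicate numbers). Qars, the glutaminyl-tRNA synthetase, rose by 0.45, from 282 to 324 CPM with DMSO to 367 to 454 CPM with torin 1. In nucleotide synthesis 2 of 27 genes fell and 1 rose, both below the shares of all genes (10 and 2 with the replicate block, none and 1 with all 6 replicate numbers, and 1 decrease without DMSO replicate 2, 3 or 4 or torin 1 replicate 1 or 2), and Ppat, the first enzyme of purine synthesis, fell by 0.45.

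Genes of nucleolar ribosome biogenesis transcribe and process rRNA. Of 66 tested, 21 fell and none rose (10.3% and 8.02% over all genes tested), with a median of -0.29, and 60 had a change below 0. With the replicate block 52 fell and 1 rose (22.7% and 21.1% over all genes), and with all 6 replicate numbers 7 fell (4.86%). Without single libraries 14 to 22 fell, fewest without DMSO replicate 3. Rrs1, an assembly factor of the large subunit, went from 83.8, 82.3, 91.3 and 91.9 CPM to 37.6, 42.5, 48.3 and 52.4 CPM (log2 -0.91 ± 0.11, adjusted p = 0.001). Polr1b, the second largest subunit of RNA polymerase I, went from 88.0, 94.9, 111 and 129 CPM to 46.0, 55.9, 60.7 and 60.9 CPM (log2 -0.89 ± 0.15, adjusted p = 0.0032). Rrp1b fell by 0.79 and Grwd1 by 0.77. Rrn3 (-0.42) and Ubtf (-0.38), initiation factors of RNA polymerase I, fell less, and Ncl (-0.22) and Fbl (-0.12), abundant nucleolar proteins, were not called, but both were with the replicate block (adjusted p = 0.0169 and 0.0361). The direction was the same with library totals (median -0.32) and upper quartile scaling (-0.26).

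Of 82 transcripts of cytosolic ribosomal proteins tested, 32 rose and none fell (8.02% and 10.3% over all genes tested), with a median of 0.21 and a highest value of 0.43, and 80 had a change above 0. With the replicate block 69 rose (21.1% over all genes), and with all 6 replicate numbers 18 (4.65%). Without single libraries 13 to 26 rose, fewest without DMSO replicate 2. Rpl3 went from 1347, 1282, 1313 and 1274 CPM to 1704, 1578, 1635 and 1679 CPM (log2 0.37 ± 0.05, adjusted p = 0.00145; with all 6 replicate numbers 0.25, adjusted p = 0.062). Rps25 rose by 0.26 (adjusted p = 0.035) but was not called in 6 of the 8 fits that left out 1 library, up to an adjusted p of 0.0968 without DMSO replicate 3. Rpl29 (0.12, adjusted p = 0.14) and Rps3 (0.12, adjusted p = 0.15) were not called, but were with the replicate block (adjusted p = 0.038 and 0.028). The median of the list was 0.18 with library totals and 0.24 with upper quartile scaling. Reads of ribosomal protein genes can be shared with near-identical pseudogenes, and how these were counted is not given in the sources used here.

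RNA and footprints differed for most ribosomal proteins. Footprints are the mRNA fragments protected by ribosomes, sequenced from the same cultures. In footprints 264 of 9853 genes were called (2.68%), 71 higher (0.721%) and 193 lower (1.96%), and 76 of the 82 ribosomal protein genes were among those lower, with a median of -0.96. Scaling by library totals gave 119 higher and 141 lower, so that 45.8% of the calls were increases, against 26.9%. Without DMSO replicate 2, 3 or 4, 175, 165 and 165 genes were called. The RNA change exceeded the footprint change for 142 genes and fell below it for 5 of 9624 (147 in all, 1.53%; 1.48% and 0.052%; interaction of assay and treatment in edgeR). This split depended on the scaling and the tool: library totals gave 112 and 38 genes, and DESeq2 187 and 43. The fit did not pair the RNA and footprints of a culture, and a fit with the culture as a block gave 154 and 10. Of the 142 genes, 76 encode ribosomal proteins. Rpl3 had a log2 change of 0.37 in RNA and -1.10 in footprints (difference 1.48, adjusted p = 1.2e-07), and Rps25 0.26 and -0.89 (difference 1.16, adjusted p = 5.6e-06). Of 50 translation factors, 9 rose and 2 fell in RNA (8.02% and 10.3% over all genes tested; 15 and 12 with the replicate block, against 21.1% and 22.7%, and 7 and 1 with all 6 replicate numbers), none rose and 11 fell in footprints, and the difference was called for 11. Eif4b, a helper of the initiation helicase, rose by 0.54 in RNA and fell by 0.89 in footprints (difference 1.43, adjusted p = 0.00014), and Qars differed too (1.14, adjusted p = 4.6e-06). Vim, at 0.44 in RNA and -0.52 in footprints, and Hsp90ab1, which encodes a cytosolic HSP90 and had 0.31 and -0.58, were further genes of this kind (differences 0.96 and 0.89, adjusted p = 0.0006 and 0.00042).

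For some of the other genes described above, the footprint values lay nearer to the RNA values, and for others they did not. Atg4c had -0.39 in RNA and 0.21 in footprints, Nbr1 0.54 and 0.15, and Atg16l1 -0.78 and -1.33, and these differences were not called. Ccng2 had 3.21 in RNA and 2.92 in footprints (difference 0.29, adjusted p = 0.94), and Sgk1 1.41 and 1.36. For the 25 FoxO-type targets the median was 0.53 in RNA and 0.59 in footprints, with no difference called, and for the 66 nucleolar genes it was -0.29 and -0.34, with 2 differences called, Polr1c and Npm1. Sos1, at -0.63 in RNA and 0.05 in footprints, was 1 of the 5 genes whose RNA change lay below the footprint change (adjusted p = 0.045). Of the 772 genes higher in RNA, 59 had a called difference, all with the RNA change above the footprint change (1.48% over all genes). Of the 989 genes lower in RNA, 3 had one, all with the RNA change below it (0.052%). The same RNA values chose these genes and enter the difference, so its direction was largely fixed by that choice. In footprints 65 of the 772 genes were called higher and 47 lower, and of the 989 genes 45 were called lower and none higher. A difference that was not called is not thereby shown to be absent.

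**Figure D4:**
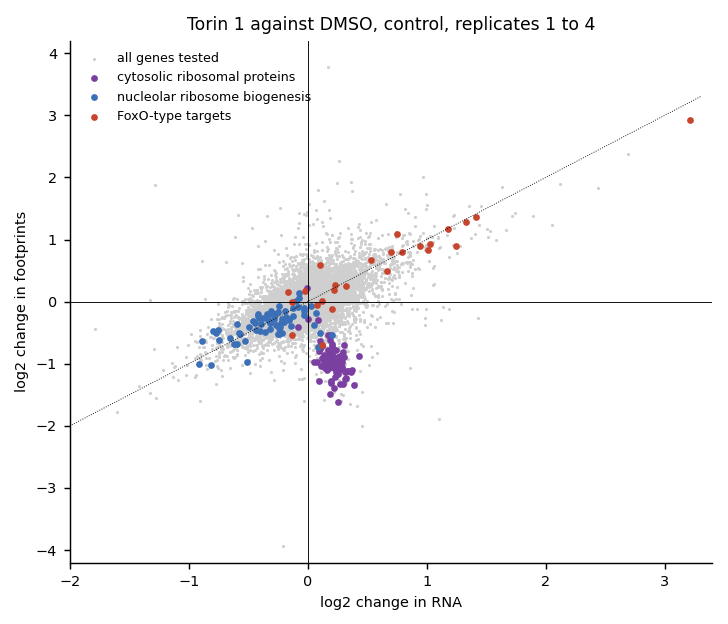
Log2 change with torin 1 in RNA (x axis) and in footprints (y axis) of control cells, replicates 1 to 4, with 1 point per gene and the dotted line where both are equal. Of the 82 ribosomal proteins (purple), 80 lie right of 0 in RNA, with a median of -0.96 in footprints; FoxO-type targets (red) have medians of 0.53 and 0.59 and nucleolar ribosome biogenesis genes (blue) of -0.29 and -0.34, with single genes of either list away from the line.

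Among regulators of the G1 phase of the cell cycle, 11 of 29 genes fell and 5 rose (10.3% and 8.02% over all genes tested), with a median of -0.06. The replicate block gave 12 decreases and 8 increases (22.7% and 21.1% over all genes), with all 6 replicate numbers 5 fell and 3 rose (4.86% and 4.65%), and without DMSO replicate 3, 7 fell. Ccne1, the cyclin E1 gene, went from 26.3, 27.1, 27.2 and 31.5 CPM to 12.1, 13.9, 14.8 and 16.6 CPM (log2 -0.93 ± 0.12, adjusted p = 0.001), and Ccnd2, the cyclin D2 gene, from 252, 230, 198 and 182 CPM to 122, 128, 108 and 91.7 CPM (log2 -0.90 ± 0.11, adjusted p = 0.001). Ccne2 (-0.69), Cdc25a (-0.85), an activating phosphatase, Skp2 (-0.61), which marks p27 for degradation, Ccnd3 (-0.33) and Ccnd1 (-0.29) fell as well. Cdkn2b, which encodes the CDK inhibitor p15, rose from 23.7, 23.2, 22 and 19.1 CPM to 41.9, 41.3, 44.2 and 45.5 CPM (log2 1.01 ± 0.08, adjusted p = 0.00011). Cdk4 (0.10) and Cdk6 (0.01) were not called. In the libraries labelled torin 1, replicates 5 and 6, Ccnd2 stood at 304 and 262 CPM, above all 4 DMSO values, and Cdkn2b at 40.6 and 34.5 CPM, between both groups.

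Of 43 DNA replication genes 2 fell and none rose, both below the 10.3% and 8.02% over all genes tested, with a median of -0.01 (13 and 4 with the replicate block, none with all 6 replicate numbers, and no decrease without DMSO replicate 3 or 4 or torin 1 replicate 1 or 2). Of 39 mitosis genes 9 rose and none fell (8.02% and 10.3% over all genes tested), with a median of 0.12. Cenpe, a kinetochore motor, went from 48.6, 57.9, 55.3 and 55.9 CPM to 95.4, 89.2, 81.0 and 87.2 CPM (log2 0.73 ± 0.08, adjusted p = 0.00042), and Cenpf (0.62) and Ndc80 (0.62), further kinetochore genes, rose too, while Cdk1 (0.09), Ccnb1 (0.06) and Plk1 (0.17) were not called, but Plk1 was with the replicate block (adjusted p = 0.028). With the replicate block 19 rose and 1 fell (21.1% and 22.7% over all genes), and with all 6 replicate numbers no mitosis gene was called. Without DMSO replicate 3 only 5 rose. In the Myc network 4 of 13 genes fell and 2 rose (10.3% and 8.02% over all genes tested). The replicate block gave 6 and 3, where the increases are near the share of all genes, and all 6 replicate numbers gave 2 and none. Only 1 rose without DMSO replicate 1, 2 or 4 or torin 1 replicate 1 or 4. Myc itself was not called (-0.07). Mnt, which encodes an antagonist of MYC, rose by 1.22 (16.8 to 33.6 CPM with DMSO and 51.5 to 68.8 CPM with torin 1), and Amd1, a polyamine synthesis enzyme, fell by 0.49. Of 13 p53 targets 3 fell and 1 rose, the latter near the share of all genes (3 and 3 with the replicate block, near the shares of all genes, 2 and none with all 6 replicate numbers, and no increase without DMSO replicate 1, 2 or 4 or torin 1 replicate 2 or 3). Beside Aen, Zmat3 fell by 0.77.

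Of 28 immediate early genes 6 rose and 4 fell (8.02% and 10.3% over all genes tested), with a median of 0.26. The replicate block gave 15 and 6 (21.1% and 22.7% over all genes) and all 6 replicate numbers 2 and 1 (4.65% and 4.86%), and the decreases were near the share of all genes in each of these fits. Klf4, a transcription factor of growth arrest and pluripotency, rose from 19.9, 19.9, 20.3 and 21.0 CPM to 49.7, 43.9, 50.2 and 59.3 CPM (log2 1.36 ± 0.10, adjusted p = 7.6e-05), and Klf6, Ier5 and Dusp1, a phosphatase of MAP kinases, rose by 0.73, 0.86 and 0.74. Without single libraries 5 to 11 rose, fewest without DMSO replicate 2. Of 21 MAPK feedback genes, 6 rose and 4 fell (8.02% and 10.3% over all genes tested; 10 and 6 with the replicate block, 3 and 3 with all 6 replicate numbers, and 3 increases without DMSO replicate 2). Dusp4, another such phosphatase, rose by 0.94, and Lif, a cytokine of the interleukin-6 family, fell by 0.75. Of 11 clock genes tested, Nr1d2 (0.80) and Arntl (0.71) rose, and Ciart (-0.61) and Clock (-0.59) fell with 1 other (8.02% and 10.3% over all genes tested; 5 rose and 4 fell with the replicate block, 2 and none with all 6 replicate numbers). Of 26 genes of TGF-beta signalling, 3 rose and 2 fell, near the shares of all genes (10 and 7 with the replicate block, 1 and 1 with all 6 replicate numbers, and 1 decrease without any single DMSO library or torin 1 replicate 3 or 4, the latter with 5 increases). Tgif1, a repressor of SMAD targets, rose by 0.69, Smad3 by 0.60 and Tgfb1 by 0.26. Of 20 collagen and matrix genes 4 rose and none fell (8.02% and 10.3% over all genes tested; 11 and none with the replicate block, and none with all 6 replicate numbers). Only 2 rose without DMSO replicate 1 or 3 or without torin 1 replicate 1, 2 or 4. Lama5, a laminin chain, rose by 0.57. Lama5 stood at 21 and 20.5 CPM in the libraries labelled torin 1, replicates 5 and 6, below all DMSO libraries, of which the lowest had 41.8 CPM. Pdgfra, a growth factor receptor gene of fibroblasts, rose from 10.7, 8.60, 6.34 and 8.75 CPM to 20.7, 17.6, 13 and 20.7 CPM (log2 1.1 ± 0.18, adjusted p = 0.0031).

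The remaining lists are given by their counts, and without the block the share of each that rose or fell was near or below the 8.02% and 10.3% over all genes tested. Of 29 genes of the unfolded protein response 3 rose and 1 fell (7 and 7 with the replicate block, near the 21.1% and 22.7% over all genes, 1 and 1 with all 6 replicate numbers, and no decrease without DMSO replicate 1, 2 or 3 or torin 1 replicate 1, 3 or 4), with Dnajb9, a chaperone of the endoplasmic reticulum, at 1.05. Of 24 heat shock genes 2 rose and 3 fell (3 and 8 with the replicate block, 1 and 2 with all 6 replicate numbers, and 1 and 1 without DMSO replicate 3 or 4), and Hsp90ab1 rose while Chordc1, an HSP90 partner, fell by 0.44. Of 22 NRF2 targets, Gclc, a subunit of the enzyme that limits glutathione synthesis, fell by 0.26, with 6 higher and 3 lower with the replicate block and 2 lower with all 6 replicate numbers. Of 27 interferon-stimulated genes, Ifit2 rose by 0.41, with 9 higher and 1 lower with the replicate block and none with all 6 replicate numbers. Of 32 proteasome genes 1 fell, with 2 higher and 5 lower with the replicate block and 1 of either with all 6 replicate numbers.

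**Figure D5:**
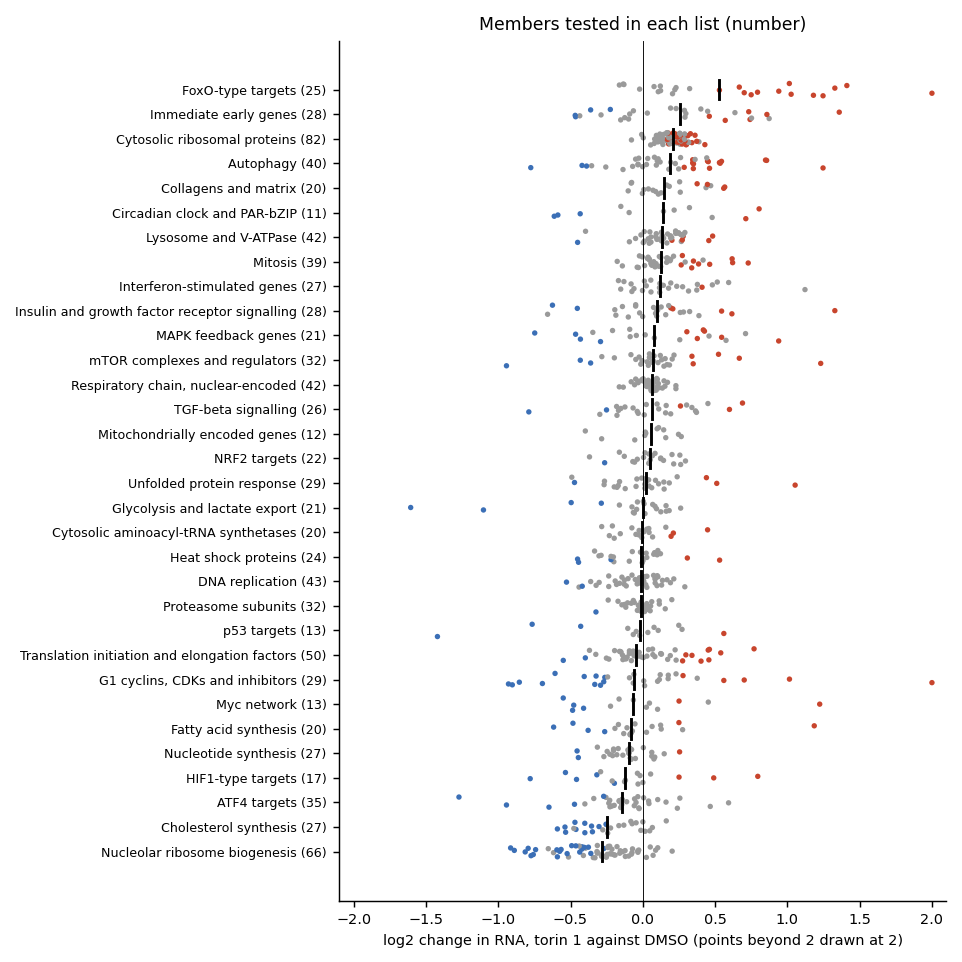
Log2 change in RNA (x axis) of the tested members of each pathway list, with 1 point per gene and the number tested in brackets. Red and blue points were called higher and lower, grey points were not called, and the black bar is the median, which runs from -0.29 for nucleolar ribosome biogenesis to 0.53 for FoxO-type targets; 2 points beyond 2, both Ccng2, are drawn at 2.

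The same treatment was given to cells in which Ctu1 had been disrupted, and replicates 1 to 3 of these were taken because later replicates had earlier been found to lie against their labels. Ctu1 encodes a subunit of the enzyme that thiolates the wobble uridine of tRNAs. In these cells 794 of 9619 genes were called (8.25%), 359 higher (3.73%) and 435 lower (4.52%). No gene was called for a difference between the torin 1 effects in Ctu1KO and in control (edgeR interaction, 0 of 9622, with 138 at an unadjusted p under 0.05, and 1 gene called by DESeq2). These control and Ctu1KO libraries are separate samples. Of the 772 genes called higher in control, 770 had a change above 0 in Ctu1KO and 299 were called higher there, with medians of 0.42 and 0.43. Of the 989 called lower, 985 had a change below 0 and 404 were called lower, with medians of -0.42 and -0.43. None was called in the opposite direction. Ccng2 had a log2 change of 3.21 in control and 2.91 in Ctu1KO, and Pfkfb3 -1.61 and -1.11. The absence of a call does not show that the effects are alike.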

How the data were processed

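Poly(A) RNA and ribosome footprints were sequenced from the same cultures. The authors deposited whole-number counts for each gene and library, without scaling. Per the labels, libraries were made with a stranded mRNA kit, and the submitters' processing notes name cutadapt 3.4, STAR and mm10. For the footprints, a human build stands in the published methods, against mm10 in the labels; aligner settings for RNA are not given in the sources used here. All RNA counts were even, and halving them left 774 genes called higher and 990 lower. Tables were joined by symbol.

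The quasi-likelihood test of edgeR 4.0.16 (R 4.3.3) was run on TMM-scaled libraries for genes averaging 10 counts or more, with Benjamini-Hochberg adjustment. CPM was computed without TMM factors. Differences between assays and between genotypes were interaction terms. Scripts were tested on simulated data. Alternatives were DESeq2 1.42.0, other scalings and filters, a replicate block, a term for replicates 1 and 2 against 3 and 4, single replicate pairs, all 6 replicate numbers, and each library left out. The interaction of treatment with that split and the halved counts were chosen after seeing the data.

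Same-numbered DMSO and torin 1 libraries deviated together from their group means (r over genes of 0.76, 0.63, 0.75 and 0.62 in replicates 1 to 4, each highest for its own number). The highest r with another number was 0.33, 0.58, 0.32 and 0.44. The numbers thus pair the samples clearly in replicates 1 and 3 and least clearly in replicate 2. The main test did not use this pairing. Blocked counts are given for the pathway lists whose count they move by over 1.5 times and for some others. The sources used here differ on how many cultures were independent: 2 in the published methods, 6 in the legend for the footprints with torin 1, and 6 replicate numbers in the labels. Which libraries share a culture is not given, so SEs and p-values measure only the spread between these libraries and are too small where libraries share a culture. The members and the 38 gene lists were chosen with earlier results of these data known. Named genes were the 15 largest increases and the 15 largest decreases among genes called, with a mean of at least 100 counts, no overlap of the groups in CPM and the same direction in replicates 1 and 2 and in replicates 3 and 4, up to 4 called members with the largest change per list, and Mtor, Rptor, Rictor, Eif4ebp1, Rpl29, Rps25 and Rps3. Genes named beyond this rule were chosen after their values were seen. Some genes that this rule names are not reported here.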

Additional observations from a re-analysis of the deposited data

Results flagged for a closer look

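Among the 141 genes named by rule or shown with a sequence, each group of 4 libraries was checked for a value far from the other 3 by Dixon's test at the 95% level. Of 282 groups, 12 held such a value (4.26%), and chance gives about 5%. Low values of DMSO replicate 4 were those of Fam110c (2.28 CPM), Trib3 (5.97 CPM), Irs2 (5.09 CPM), Nr1d2 (14.6 CPM) and Sox9 (20.2 CPM), and a high one was that of Aen (78.5 CPM). In DMSO replicate 3, Slc25a25 was high (70.0 CPM). In torin 1 replicate 1, Pfkfb3 (9.0 CPM), Fasn (364 CPM) and Ppat (59.0 CPM) were low and Dyrk1b (29.1 CPM) was high, and in torin 1 replicate 3 Ndrg1 was high (69.5 CPM). Outside the comparison, the libraries labelled torin 1, replicates 5 and 6, both lay beyond all 6 DMSO values, on the side of torin 1 replicates 1 to 4, for 13 of the 30 most changed genes.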

How the results depend on the processing

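The RNA comparison gave 1761 calls, and 1285 to 1609 without single libraries. It gave 4217 with the replicate block, 3366 with a term for replicates 1 and 2 against 3 and 4 and 916 with all 6 replicate numbers. Other scalings and filters, DESeq2, halved counts and single replicate pairs stayed within 1.5 times (1302 to 2344). Footprints gave 264 calls, 562 with DESeq2, 887 with the replicate block, 714 with all 6 replicate numbers, and 165 to 215 without single libraries. The difference between RNA and footprints gave 147 calls, 230 with DESeq2 and 116 to 140 without single libraries. The difference between genotypes gave 0 calls, and 1 with DESeq2. With all 6 replicate numbers the log2 change of Trib3 became 0.11 and that of Herpud1 0.015. Trib3 and Herpud1 also lost their call there. No other of the 141 named genes that was called changed direction, and 50 others lost their call with all 6 replicate numbers. The replicate block gave a call to 2 of these 141 genes, Rpl29 and Rps3, and changed no other call among them; Psat1, Ncl, Fbl and Plk1, named beyond them, were also called with it. Library totals ended 8 calls of named genes, replicates 1 and 2 alone 17 and replicates 3 and 4 alone 21. The cause of these differences was not tested.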
